A study of Mus musculus with 8 samples.

Results

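Nr4a1, Nr4a2 and Nr4a3 encode the NR4A family of orphan nuclear receptors, and they were picked by symbol as the 3 members of that family among the 33885 gene symbols counted in both brain regions. NR4A proteins are transcription factors built like steroid hormone receptors, but their ligand pocket is closed and they act without a known natural hormone. Their activity is set largely by how much of each protein a cell makes. In neurons their genes are immediate early genes, transcribed within minutes of calcium entry and cAMP signalling through CREB, MEF2 and SRF. They bind DNA as monomers at a short element named NBRE, as dimers at a palindrome named NurRE, and, for Nr4a1 and Nr4a2, together with retinoid X receptors. Nr4a1, also named Nur77, is known in the striatum for its response to dopamine drugs. Nr4a2, also named Nurr1, is needed for midbrain dopamine neurons to form and marks claustrum and deep cortical neurons. Nr4a3, also named Nor1, is the least studied member in brain.

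The tissue came from adult male mice of the inbred strain C57Bl6J, in 8 total RNA libraries that form 4 groups of 2. In the nucleus accumbens (NAc), a ventral striatal reward region, 2 libraries came from mice given cocaine (7.5 mg/kg, intraperitoneal) in a place-preference chamber, and 2 came from mice left in the home cage. In the medial prefrontal cortex (mPFC), 2 libraries came from mice that had been attacked by an aggressive CD1 male, here called social defeat, and 2 came from home-cage mice. The titles of the mPFC libraries carry the label WT (wild type) in both groups, and those of the NAc libraries do not. Tissue of exposed mice was taken 15 min after the experience. Mice of the home-cage groups were left undisturbed, so the drug cannot be told apart from the injection and the chamber, nor the attack from the rest of the encounter. Whether the libraries of a group come from separate animals or from pools is not stated in the labels, so the p-values below measure the spread between libraries, which may be technical.

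On mm10 with the GENCODE M21 annotation, Nr4a1 (ENSMUSG00000023034.7) lies on the plus strand at chr15:101254269-101274795, Nr4a2 (ENSMUSG00000026826.13) on the minus strand at chr2:57106830-57124003, and Nr4a3 (ENSMUSG00000028341.9) on the plus strand at chr4:48045153-48086447. Their merged exons span 3509, 4059 and 5987 bases. No other annotated gene overlaps any of the 3. Their promoters are printed because all 3 genes were higher after social defeat, and because the short CREB motif TGACG, the CRE half-site, occurs in each. Every window runs from 250 bases before the RefSeq start to 50 bases from it onward, on GRCm38.p6. Capitals mark each half-site on either strand, and in Nr4a1 the 7-letter string TGCGTCA that holds it. The windows are chr15:101266596-101266895 on the plus strand for Nr4a1, which lies inside the GENCODE span of the gene, chr2:57123954-57124253 on the minus strand for Nr4a2, and chr4:48045055-48045354 on the plus strand for Nr4a3.
Nr4a1: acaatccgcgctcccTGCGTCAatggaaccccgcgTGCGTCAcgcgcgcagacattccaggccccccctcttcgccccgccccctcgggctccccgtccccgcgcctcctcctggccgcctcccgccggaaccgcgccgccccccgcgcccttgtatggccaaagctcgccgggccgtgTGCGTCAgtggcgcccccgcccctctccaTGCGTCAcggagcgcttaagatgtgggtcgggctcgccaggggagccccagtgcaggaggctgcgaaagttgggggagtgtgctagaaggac
Nr4a2: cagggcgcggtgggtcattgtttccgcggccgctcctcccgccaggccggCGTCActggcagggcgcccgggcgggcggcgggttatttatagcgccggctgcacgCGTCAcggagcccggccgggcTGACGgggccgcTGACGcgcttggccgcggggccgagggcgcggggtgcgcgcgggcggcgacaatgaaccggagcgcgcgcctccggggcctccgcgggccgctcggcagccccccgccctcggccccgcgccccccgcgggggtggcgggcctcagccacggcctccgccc
Nr4a3: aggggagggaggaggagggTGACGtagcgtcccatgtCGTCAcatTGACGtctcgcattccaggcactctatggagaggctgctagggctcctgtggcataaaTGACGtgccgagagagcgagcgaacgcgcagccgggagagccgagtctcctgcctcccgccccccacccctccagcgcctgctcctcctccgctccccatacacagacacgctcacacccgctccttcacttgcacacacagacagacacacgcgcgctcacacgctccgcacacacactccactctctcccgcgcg
Each of the 3 windows held 4 half-sites, a number reached by 0.231% of the 32851 RefSeq mouse promoter windows, of which 20.8% held at least 1. In Nr4a1 all 4 sit inside copies of TGCGTCA, which start at positions -235, -215, -71 and -42 with the start of the gene as position 0. The string TGCGTCA was in 2.12% of all windows. In Nr4a2 the half-sites start at -200, -144, -123 and -111, and in Nr4a3 at -231, -213, -205 and -147. The full palindrome TGACGTCA (1.79% of windows), the AP-1 string TGANTCA (7.81%), the CArG box (1.63%) and the NBRE AAAGGTCA (1.51%) were in none of the 3, all searched on both strands. TATAAA (13.6% of windows) was found once, on the other strand of Nr4a2 at -164. The GC box GGGCGG (35.7%) occurred 3 times in Nr4a1, 5 times in Nr4a2 and 1 time in Nr4a3. The windows were 72.3%, 81.7% and 64.7% G and C in that order of genes, against a median of 52.7% over all windows, and the share of motifs was not corrected for base composition. These matches are strings in a fixed window and were not tested for binding.

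**Figure D1:**
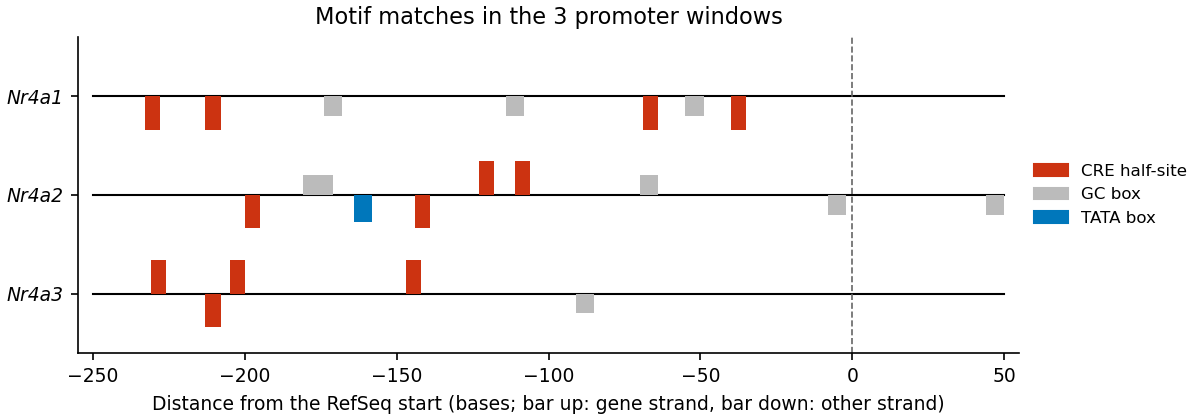
Matches of 3 motifs in the promoter windows of the 3 genes, by distance in bases from the RefSeq start (dashed line); bars above a line are on the strand of the gene and bars below it on the other strand. Each gene has 4 CRE half-sites upstream of its start, and in Nr4a1 all of them read on the other strand.

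Library totals ran between 111901829 and 179479978 counts, so each member rested on 1515 to 28730 counts per library. Levels are given in CPM, with TMM factors of edgeR taken over all 8 libraries. The labelled regions showed in their markers, since 12 striatal projection neuron genes summed to 2557 to 5999 CPM after cocaine and 2244 to 6833 CPM in NAc of home-cage mice, against 856 to 908 CPM after defeat and 855 to 969 CPM in mPFC of home-cage mice. Within NAc the libraries numbered 2 stood apart from those numbered 1. All 12 striatal genes were lower in number 2 in both groups, their sum being 0.426 times that of number 1 after cocaine and 0.328 times in home-cage mice, while 11 and 10 of 12 cortical glutamatergic genes were higher. In bulk tissue, fewer cells of a type and less RNA per cell cannot be told apart. Of the marker genes of all lists, Lxn (claustrum) and P2ry12 (microglia) had 0 counts in all libraries.

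All 3 Nr4a genes rose in mPFC after social defeat. The fold change was largest for Nr4a1 and smallest for Nr4a2, without a test between the genes, and in none of them did the defeat and home-cage libraries overlap. Nr4a1 had 194 and 204 CPM after defeat, against 98.1 and 104 CPM in home-cage mice. The defeat libraries lay far above the home-cage libraries, with a gap many times the spread inside either group. The group means were 199 ± 7.08 CPM after defeat and 101 ± 3.86 CPM in home-cage mice (SD, n = 2 each), a 1.98-fold difference.

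Nr4a3 had 117 and 125 CPM after defeat, against 67.9 and 70.5 CPM in home-cage mice, with means of 121 ± 6.22 and 69.2 ± 1.83 CPM (SD, n = 2 each). Again the groups were far apart, and the difference was 1.75-fold. Nr4a2, the lowest of the 3 in mPFC, had 21.3 and 23.8 CPM after defeat, against 15.2 and 13.7 CPM in home-cage mice. Its groups did not overlap either, with means of 22.6 ± 1.79 and 14.5 ± 1.06 CPM (SD, n = 2 each) and a 1.56-fold difference.

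The edgeR quasi-likelihood test across 18027 genes, with Benjamini-Hochberg adjustment, gave log2 fold changes of 0.99 (SE 0.0766, adjusted p = 1.28e-15) for Nr4a1, 0.81 (SE 0.0766, adjusted p = 3.26e-12) for Nr4a3 and 0.64 (SE 0.0874, adjusted p = 2.88e-07) for Nr4a2. All 3 members were therefore called higher at an adjusted p under 0.05, where 0.549% of all tested genes were called higher, 0.155% lower and 0.704% in either direction. Both defeat libraries lay above both home-cage libraries in all 3 members and in 16.4% of all genes tested. Among the 99 genes called higher, Nr4a1 ranked 30, Nr4a3 42 and Nr4a2 53 by fold change. When any 1 library was left out, log2 fold changes lay between 0.95 and 1.02 for Nr4a1, 0.76 and 0.86 for Nr4a3, and 0.56 and 0.73 for Nr4a2. Such a fit holds 1 library in 1 group and takes its spread from the other pair alone, so it does not show whether the calls would repeat. The 3 calls were lost when the spread was estimated over all 8 libraries at once, NAc included. The folds were then the same to 2 decimals except for Nr4a1 at 0.98, and the adjusted edgeR p-values were 0.496 for Nr4a1 and 1 for both others.

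Blood cell genes moved in the same comparison, with summed levels of 56.7 to 61.8 CPM after defeat and 23.2 to 23.5 CPM in home-cage mice. Of 4 tested members 3 were called higher, where 0.549% of all genes were. These were Hba-a1, Hbb-bs and, at the low level of 0.206 to 0.768 CPM over both groups, Hba-a2. Oligodendrocyte genes were lower in 8 of 8 without a call, with a median log2 fold change of -0.19. Of 7 tested claustrum and layer 6b genes, which mark cells where Nr4a2 is normally high, 1 had a positive fold change, and their sum was 191 to 194 CPM after defeat and 202 to 214 CPM in home-cage mice. Their part in the Nr4a differences was not tested.

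**Figure D2:**
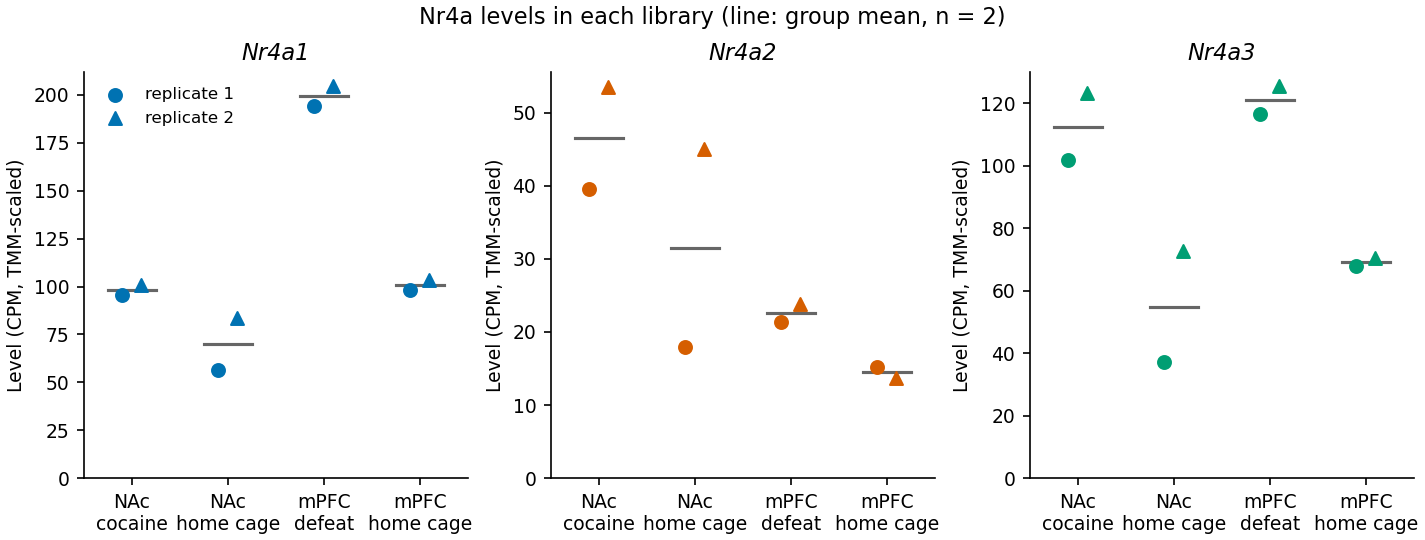
Level of each Nr4a gene in each of the 8 libraries, in CPM on a linear axis from 0; circles are replicate 1, triangles replicate 2 and lines the group means (n = 2). The defeat libraries stand above the mPFC home-cage libraries in all 3 panels, and the NAc home-cage libraries are the most spread pair, with Nr4a2 at 17.9 and 45.1 CPM.

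In NAc after cocaine, Nr4a3 had the largest difference of the 3 genes, but none of them passed the test. Nr4a3 had 102 and 123 CPM after cocaine, against 37.0 and 72.8 CPM in home-cage mice. Both cocaine libraries were higher than both home-cage libraries, and the home-cage pair differed from each other by more than the cocaine pair. The means were 112 ± 15.2 CPM after cocaine and 54.9 ± 25.3 CPM in home-cage mice (SD, n = 2 each), a 2.05-fold difference. Its log2 fold change was 1.03 (SE 0.350), with an unadjusted p of 0.0369 and an adjusted edgeR p of 1.

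Nr4a1 had 95.6 and 101 CPM after cocaine, against 56.2 and 83.7 CPM in home-cage mice. The groups did not overlap, and the cocaine pair lay close together while the home-cage pair was spread. The means were 98.2 ± 3.69 CPM after cocaine and 70.0 ± 19.4 CPM in home-cage mice (SD, n = 2 each), with a log2 fold change of 0.49 (SE 0.210) and an unadjusted edgeR p of 0.0734.

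Nr4a2 had 39.6 and 53.5 CPM after cocaine, against 17.9 and 45.1 CPM in home-cage mice. Here the groups overlapped, because home-cage replicate 2 lay above cocaine replicate 1. The means were 46.6 ± 9.85 CPM after cocaine and 31.5 ± 19.2 CPM in home-cage mice (SD, n = 2 each), with a log2 fold change of 0.57 (SE 0.471) and an unadjusted edgeR p of 0.289.

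No gene at all passed in this comparison, so 0% of 18418 genes is the background for the 0 of 3 members. edgeR gave 211 genes an unadjusted p under 0.05, and the DESeq2 Wald test passed 4 genes, none of them an Nr4a gene. Nr4a1 and Nr4a3 had no overlap between the groups, cocaine being the higher, as did 11.8% of all genes tested.

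The replicate number moved with the Nr4a levels in NAc, in the same libraries whose striatal markers differed. Nr4a2 in number 2 was 1.35 times its level in number 1 after cocaine and 2.52 times in home-cage mice. Nr4a3 was 1.21 and 1.97 times as high in number 2, and Nr4a1 1.05 and 1.49 times, in the same order of groups. Oligodendrocyte genes were positive for 8 of 8 in the cocaine comparison without a call, with a median log2 fold change of 0.35 and sums of 2271 to 2572 CPM after cocaine and 1361 to 2403 CPM in home-cage mice. They were lower in number 2 for 8 of 8 in both groups, and claustrum and layer 6b genes were higher for 4 of 7 after cocaine and 5 of 7 in home-cage mice. The part of dissection or of any cell type in these differences was not tested.

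Within a number, the cocaine library was above its home-cage counterpart for every Nr4a gene. For Nr4a3 the ratio of cocaine to home cage was 2.75 in number 1 and 1.69 in number 2. For Nr4a1 it was 1.70 and 1.20, and for Nr4a2 it was 2.21 and 1.19. The ratio was larger in number 1 for all 3 genes, where the home-cage level was the lowest of the 4 libraries. Leaving out NAc home-cage replicate 1 gave log2 fold changes of 0.63 for Nr4a3, 0.23 for Nr4a1 and 0.05 for Nr4a2, and leaving out replicate 2 gave 1.60, 0.80 and 1.38. Th, the dopamine synthesis enzyme and a reported NR4A target, was the member of the target list with the smallest p, and had 2.56 and 1.72 CPM after cocaine, against 3.46 and 5.41 CPM in home-cage mice, with a log2 fold change of -1.05 (SE 0.318) that did not pass.

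**Figure D3:**
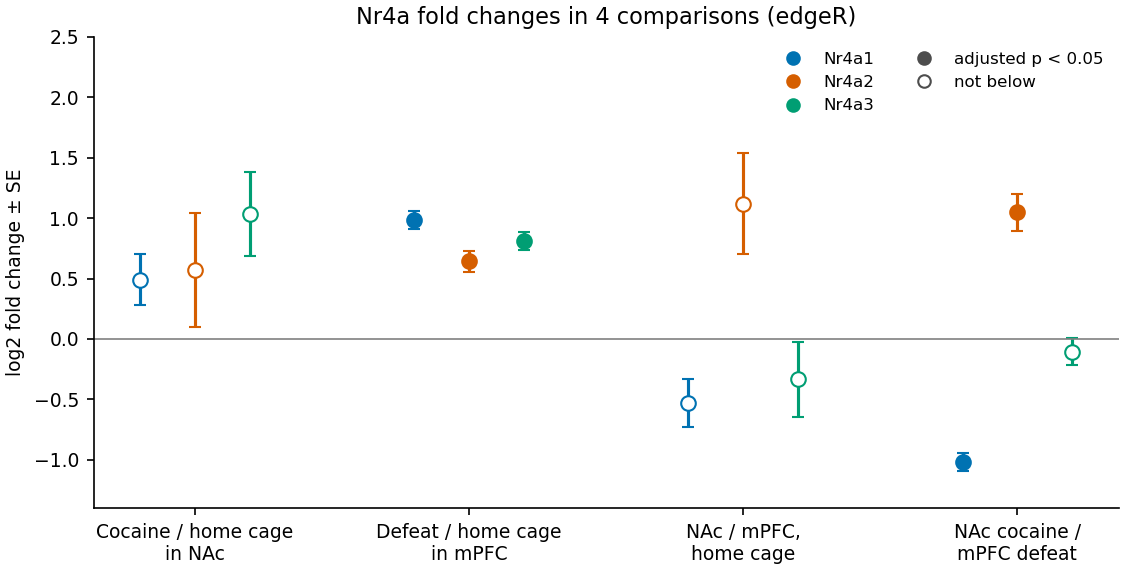
log2 fold changes of the 3 genes in 4 comparisons with their SE from edgeR; filled points had an adjusted p under 0.05 and open points did not. Error bars are narrow after defeat (SE 0.0766 to 0.0874) and wide in the comparisons that hold the NAc home-cage pair (SE up to 0.471).

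Whether cocaine in NAc and defeat in mPFC differed in their effect on a gene was tested by the difference of the log2 fold changes over all 8 libraries. It was -0.49 (SE 0.237, unadjusted p = 0.0740) for Nr4a1, -0.08 (SE 0.530, unadjusted p = 0.890) for Nr4a2 and 0.23 (SE 0.387, unadjusted p = 0.574) for Nr4a3 by edgeR. None of the 3 passed, where 0% of 18783 genes did, 415 genes had an unadjusted p under 0.05, DESeq2 passed 2 genes and limma-voom 0. The SE of Nr4a2 and Nr4a3 exceed their differences, so these data do not show whether the responses are alike. Without NAc home-cage replicate 1 the difference for Nr4a1 was -0.76, and without replicate 2 it was -0.18. The sign for Nr4a2 turned with the method, to 0.068 with limma-voom.

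The make-up of the Nr4a family was compared within a library, on CPM per kb of merged exon. Per exon length Nr4a1 was the highest and Nr4a2 the lowest of the 3 in all 8 libraries. The mean levels of Nr4a1 were 28.0 CPM per exon kb after cocaine and 19.9 in NAc of home-cage mice, and 56.8 after defeat and 28.7 in mPFC of home-cage mice. Those of Nr4a3 were 18.8 and 9.17 CPM per exon kb in NAc and 20.2 and 11.6 in mPFC, in the same order. Those of Nr4a2 were 11.5 and 7.75 in NAc and 5.56 and 3.56 in mPFC. Total RNA holds intron reads, and whether these were counted is not stated. Per kb of annotated gene span, Nr4a2 and Nr4a3 came close in NAc, at 2.71 and 2.72 CPM per span kb after cocaine, and Nr4a2 had the higher mean in home-cage mice, at 1.83 against 1.33.

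The make-up of the family was next compared as shares. Nr4a2 made up 18.1% and 21.1% of the summed CPM per exon kb after cocaine and 16.5% and 23.6% in NAc of home-cage mice, but 6.55% and 6.91% after defeat and 8.70% and 7.56% in mPFC of home-cage mice. Every NAc library held a larger Nr4a2 share than every mPFC library. The Nr4a3 share was 31.5% and 32.9% after cocaine, against 23.2% and 25.8% in home-cage mice, and 24.3% and 24.6% after defeat, against 26.3% and 26.4% in home-cage mice. It was thus higher in both cocaine libraries and lower in both defeat libraries than in their home-cage pairs. Nr4a1 took 50.5% and 46.0% after cocaine and 60.2% and 50.6% in NAc of home-cage mice, and 69.1% and 68.5% after defeat and 65.0% and 66.1% in mPFC of home-cage mice, so that every NAc library held a smaller Nr4a1 share than every mPFC library.

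The ratio of Nr4a3 to Nr4a1 per exon kb was 0.623 and 0.716 after cocaine, against 0.386 and 0.510 in home-cage mice, a log2 difference of 0.59. After defeat it was 0.352 and 0.360, against 0.406 and 0.399 in home-cage mice, a log2 difference of -0.18. The groups did not overlap in either region, but an exact two-sided permutation test of 2 against 2 libraries gave p = 0.333 for each, the smallest it can give. The ratio of Nr4a2 to Nr4a1 after defeat was 0.0948 and 0.101, against 0.134 and 0.114 in home-cage mice, also apart and also at an exact permutation p of 0.333.

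**Figure D4:**
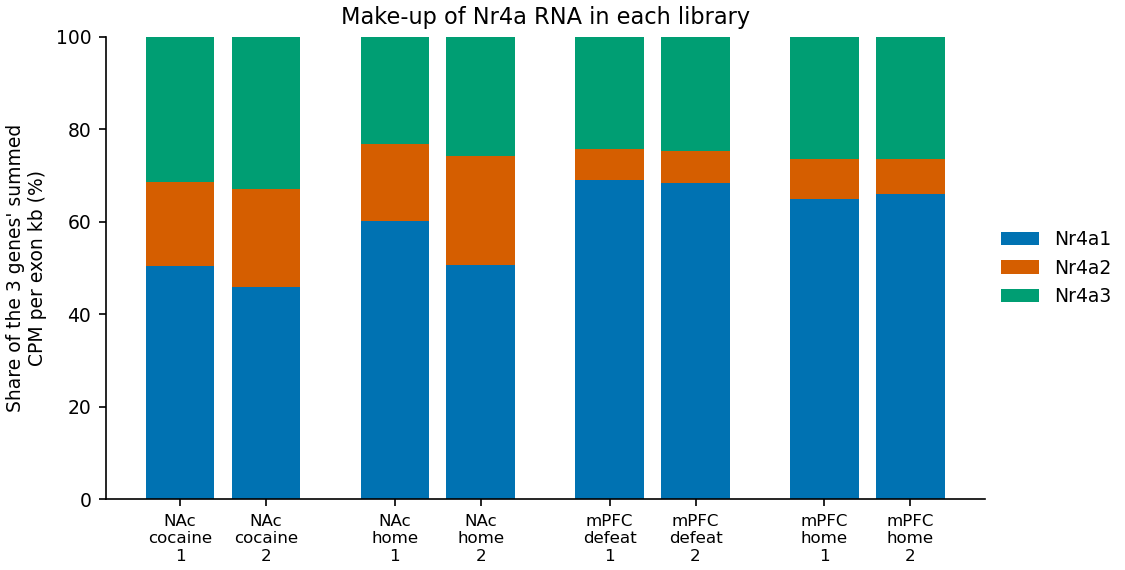
Share of each Nr4a gene in the summed CPM per exon kb of the family, in percent, for each library (cocaine and home cage in NAc, then defeat and home cage in mPFC). The Nr4a2 share is 16.5% to 23.6% in NAc libraries and 6.55% to 8.70% in mPFC libraries.

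Across the 4 groups, Nr4a1 was highest after defeat, and the next groups in order, mPFC home cage and NAc after cocaine, overlapped. Nr4a3 was highest after defeat and after cocaine, whose libraries overlapped, and the home-cage groups of both regions overlapped as well. Nr4a2 was highest after cocaine and lowest in mPFC of home-cage mice, and its NAc home-cage pair overlapped both the cocaine pair and the defeat pair.

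Between regions in home-cage mice, Nr4a2 had 17.9 and 45.1 CPM in NAc, against 15.2 and 13.7 CPM in mPFC. Both NAc libraries were above both mPFC libraries, replicate 1 by little and replicate 2 by far. The log2 fold change of NAc over mPFC was 1.12 (SE 0.422, adjusted p = 0.143 by edgeR). For Nr4a1 it was -0.53 (SE 0.201, adjusted p = 0.146), with both NAc libraries below both mPFC libraries, and for Nr4a3 it was -0.34 (SE 0.311, adjusted p = 0.507), with overlap. None of the 3 passed, where 12.4% of 18300 genes did, 7.01% higher and 5.35% lower in NAc. Both libraries of NAc lay above those of mPFC in 32.2% of genes and below them in 31.2%. These values turn on 1 library. Without NAc home-cage replicate 1 the log2 fold change of Nr4a2 was 1.64 and without replicate 2 it was 0.30. Nr4a1 was at -0.27 without replicate 1 and at -0.85 without replicate 2. Nr4a3 turned from 0.076 without replicate 1 to -0.91 without replicate 2. Such a fit holds 1 NAc library and takes its spread from the mPFC pair alone, so its p-values are not given. Striatal marker sums differed between these 2 NAc libraries as given above, and their part was not tested.

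In exposed mice 2 of the 3 genes passed between regions, although region and experience cannot be told apart here. Only Nr4a1 had a larger absolute log2 fold change than in home-cage mice, and all 3 genes had a smaller SE. Nr4a1 was lower in NAc after cocaine, at 95.6 and 101 CPM, against 194 and 204 CPM in mPFC after defeat, and edgeR put the log2 fold change at -1.02 (SE 0.0766, adjusted p = 0.00126). Nr4a2 was higher, at 39.6 and 53.5 CPM after cocaine, against 21.3 and 23.8 CPM after defeat, a 2.07-fold difference, or 1.05 on the log2 scale (SE 0.152, adjusted p = 0.00621). Nr4a3 had 102 and 123 CPM after cocaine, against 117 and 125 CPM after defeat, which overlapped, and differed by -0.11 on the log2 scale (SE 0.110, adjusted p = 0.492). Of all 18362 genes tested 36.3% passed in this comparison, 19.2% higher and 17.1% lower, which is the background for the 2 of 3 members that passed. Both cocaine libraries were above both defeat libraries in 37.3% of genes and below them in 36.9%. The Nr4a2 call was lost without defeat replicate 1 (adjusted p = 0.0738) or replicate 2 (adjusted p = 0.0504), and with the spread of all 8 libraries (adjusted p = 0.0741). Nr4a3 was at -0.26 without cocaine replicate 2 and at 0.027 without cocaine replicate 1. Claustrum and layer 6b genes summed to 276 to 298 CPM after cocaine and 191 to 194 CPM after defeat, and midbrain dopamine genes to 20.8 to 22.1 and 14.5 to 16.0 CPM. Their part in the Nr4a2 difference was not tested.

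The nuclear receptor superfamily, from thyroid and steroid receptors to orphans, served as the family background. Of 49 listed genes, 42 were tested after defeat. The 3 Nr4a genes were called higher, where 0.549% of all genes were. Of the other 39 none passed by edgeR or DESeq2, where edgeR passed 0.704% of all genes. An unadjusted edgeR p under 0.05 was found for 1 of the 39, and for 1288 of all 18027 genes. The median log2 fold change of the 39 was 0.01, with a range of -0.69 for Nr2e3 to 0.31 for Nr1i2. Without mPFC home-cage replicate 1, Rxrg, a retinoid X receptor, was called lower. After cocaine none of 44 passed, where edgeR passed 0% of all genes. Only Nr4a3 of the 44 had an unadjusted edgeR p under 0.05, as did 211 of all 18418 genes. The median log2 fold change of the other 41 was 0.00 there. The median over all genes was -0.01 after cocaine and 0.00 after defeat.

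Per exon length, Nr4a1 ranked 3 among the 49 nuclear receptor genes in mPFC after defeat and 4 in home-cage mice, and 7 after cocaine and 8 in NAc of home-cage mice. Nr4a3 ranked 6 after defeat and 11 in mPFC of home-cage mice, and 9 after cocaine and 13 in NAc of home-cage mice. Nr4a2 ranked 21 after defeat and 26 in mPFC of home-cage mice, and 13 after cocaine and 18 in NAc of home-cage mice. Whether intron reads were counted is not stated, and no rank per gene span was made, so these ranks hold for exon length alone.

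Between regions in home-cage mice, 10 of the other 41 nuclear receptors passed, 6 higher and 4 lower in NAc, where 12.4% of all genes passed, 7.01% higher and 5.35% lower. Among the 5 with the smallest p, Rxrg, which can pair with Nr4a1 and Nr4a2, had the largest log2 fold change of NAc over mPFC at 3.46 (SE 0.452). Nr3c2, the mineralocorticoid receptor, was at 1.44 (SE 0.135), Esrrg, an oestrogen-related orphan receptor, at 0.81 (SE 0.104), Pgr, the progesterone receptor, at -1.04 (SE 0.127), and Nr2f2, also named COUP-TFII, at -1.29 (SE 0.168). These regional calls, and all others below, were lost when either mPFC home-cage library was left out, where 0 genes passed by edgeR and 2680 and 2724 had an unadjusted p under 0.05.

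**Figure D5:**
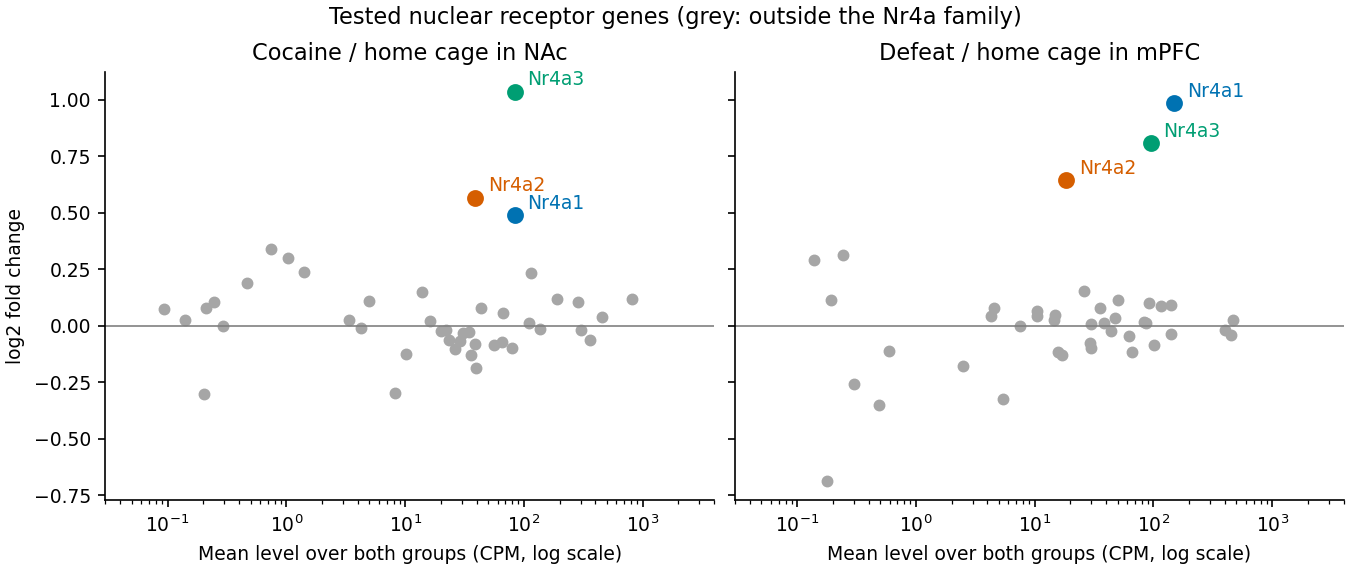
log2 fold change of each tested nuclear receptor gene against its mean level over both groups in CPM (log axis), after cocaine (left) and after defeat (right); grey points are receptors outside the Nr4a family. The 3 Nr4a genes lie at 0.64 to 0.99 after defeat, above all other receptors, whose highest value is 0.31.

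Genes that act upstream of Nr4a transcription (CREB and its coactivators, kinases, SRF and ELK1, MEF2 factors and histone deacetylases) were nearly all without a call after either experience. Of 29 tested after defeat, 1 passed, where 0.704% of all genes did. This was Crem, a CREB relative whose short forms repress CRE genes. It had 18.2 and 19.9 CPM after defeat, against 14.9 and 14.1 CPM in home-cage mice, and edgeR put its log2 fold change at 0.40 (SE 0.0872, adjusted p = 0.00602). This call was lost without defeat replicate 2 (adjusted p = 0.661) and with the spread of all 8 libraries (adjusted p = 0.924). After cocaine none of 29 passed by edgeR or DESeq2, where edgeR passed 0% of all genes. An unadjusted edgeR p under 0.05 was found for 0 of the 29, and for 211 of all 18418 genes. The smallest p belonged to Elk1, an SRF partner, at -0.15 and to Crem at 0.12. Medians of the list were 0.00 after defeat and -0.03 after cocaine.

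Between regions 5 of the 29 passed, where 12.4% of all genes did. Higher in NAc were Camk2d at 1.16 and Rps6ka5, which encodes the kinase MSK1, at 1.02, the latter just under the threshold (adjusted p = 0.0499 by edgeR). With median-of-ratios size factors, or with the filter of 10 counts, 1 gene of the list rather than 2 was called higher. Lower were Mef2c, a MEF2 factor, at -1.52, Hdac9, a class II histone deacetylase, at -1.33 and Camk2g at -0.87. Camk2d and Camk2g encode subunits of the calcium/calmodulin kinase CaMKII.

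Partners and corepressors of NR4A proteins showed no call after either experience. Of 13 tested after defeat, none passed by edgeR or DESeq2, where edgeR passed 0.704% of all genes. An unadjusted edgeR p under 0.05 was found for 1 of the 13, and for 1288 of all 18027 genes. The 1 member was Rxrg at -0.32 (SE 0.117, adjusted p = 0.338), with Sin3a, a corepressor scaffold, next at 0.13. After cocaine none of 13 passed by either tool, where edgeR passed 0% of all genes. An unadjusted edgeR p under 0.05 was found for 0 of the 13, and for 211 of all 18418 genes. The smallest p belonged to Hdac2, a histone deacetylase, at -0.11 and Rxrb, a retinoid X receptor, at -0.10. Between regions only Rxrg passed of the 13, where 12.4% of all genes did. It had 94.5 and 38.7 CPM in NAc of home-cage mice, against 5.33 and 6.76 CPM in mPFC.

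Genes reported as NR4A targets in other work were mostly without a call at this early time. Of 17 tested after defeat, 1 passed, where 0.704% of all genes did. This was Bdnf, a neurotrophin that is itself activity-regulated. It had 38.7 and 38.4 CPM after defeat, against 28.8 and 30.1 CPM in home-cage mice, and edgeR put its log2 fold change at 0.39 (SE 0.0793, adjusted p = 0.00179). The call was lost without defeat replicate 1 (adjusted p = 0.0987) or replicate 2 (adjusted p = 0.123) and with the spread of all 8 libraries (adjusted p = 1). After cocaine none of 18 passed by edgeR or DESeq2, where edgeR passed 0% of all genes. Th, given above, was the 1 gene of the list with an unadjusted edgeR p under 0.05, as had 211 of all 18418 genes. Hspa5, an endoplasmic reticulum chaperone, was next at -0.20. Between regions 1 of 18 was called higher in NAc and 1 lower, where 7.01% and 5.35% of all genes were. Slc6a3, the dopamine transporter, was higher, though at 0.616 and 0.918 CPM in NAc against 0.0737 and 0.0633 CPM in mPFC. Cdkn1c, a cell cycle inhibitor and known Nr4a2 partner, was lower, at 0.706 and 1.12 CPM against 3.41 and 4.0 CPM.

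Other activity-regulated transcription factors moved in the direction of the Nr4a genes after defeat. Of 17 tested, 13 were called higher, where 0.549% of all genes were. All 17 were positive, with a median log2 fold change of 0.90. Like the Nr4a genes, the list was chosen with earlier results of these data known. The 5 with the smallest p were Npas4, a neuronal bHLH factor, at 2.03, Fos and Junb, subunits of AP-1, at 2.09 and 1.66, Ier2 at 1.76 and Egr2, a zinc finger factor, at 1.55. With the spread of all 8 libraries 3 of the 17 passed. After cocaine 0 of 17 passed by edgeR and 3 by DESeq2. An unadjusted edgeR p under 0.05 was found for 6 of them, and for 211 of all 18418 genes. Of the 17, 14 were positive, and the median was 0.40. Npas4 at 1.69 (SE 0.169) and Egr2 at 1.24 (SE 0.132) had the smallest p. Between regions in home-cage mice 5 of 17 were lower in NAc, Egr3, Egr2, Egr1, Fosb and Bhlhe40, where 5.35% of all genes were lower, with log2 fold changes of -1.68 to -0.97, and the list median was -0.63.

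Likeness of pattern was measured by Pearson's r of log2 CPM over the 8 libraries among 13083 genes, as a description. The libraries share 4 groups, 2 regions and the NAc numbering, so r counts these together. Nr4a1 was most like Ier2 (r = 0.994), Arc, a synaptic protein (r = 0.993), Dusp5, a MAP kinase phosphatase (r = 0.980), Pim3, a kinase (r = 0.974), and Egr4, a zinc finger factor (r = 0.974). Among the genes most like Nr4a3 were Mafk (r = 0.983), Gadd45g (r = 0.948), Fos (r = 0.948) and Col4a6 (r = 0.922). Among those most like Nr4a2 were Vps37b (r = 0.975), Cped1 (r = 0.962), Xkr7 (r = 0.962) and Grhl3 (r = 0.960). Several of these have low levels, such as Col4a6 at 2.31 CPM after cocaine and 1.99 CPM in NAc of home-cage mice. Among the members themselves, r was 0.801 for Nr4a1 with Nr4a3, 0.468 for Nr4a2 with Nr4a3 and -0.06 for Nr4a1 with Nr4a2.

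None of the tested genes annotated within 50 kb of a member passed in any of the cocaine, defeat or home-cage region comparisons by edgeR. The tested ones near Nr4a1 were Acvr1b, AU021063, Grasp and Atg101, with log2 fold changes after defeat of -0.01, 0.00, 0.18 and 0.08. Grasp, a postsynaptic scaffold gene that lies 21513 bases from Nr4a1, had an adjusted p of 0.617. Near Nr4a3, Stx17, a syntaxin 38468 bases away, was at -0.03 after defeat. The lincRNA Gm12434 passed the low-count filter in NAc and had 87 counts in all 8 libraries. The other genes annotated in these windows, among them all those near Nr4a2, do not appear under these names among the counted gene symbols.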

How the data were processed

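Total RNA libraries were aligned to mm10 with STAR 2.7.1a and counted with featureCounts, per the submitters' processing notes, and the authors deposited raw counts per gene symbol in 1 table per region. The annotation and the strand, intron and multi-mapping options of the counting do not appear in those notes or in the file headers. Groups came from the sample titles and treatment labels, and the mPFC libraries were numbered in deposit order. Each comparison used edgeR 4.0.16 in R 4.3.3 (filterByExpr, TMM, estimateDisp, glmQLFit, glmQLFTest), with Benjamini-Hochberg adjustment over all genes tested, a threshold of 0.05, and SE computed as the absolute log2 fold change over the square root of F. log2 CPM used a prior count of 2. Alternatives were DESeq2 1.42.0, limma 3.58.1 voom, other scalings, other low-count filters (none, or 10 counts in every library of a group), leaving out each library, a contrast of all 8 libraries and a replicate block. The procedure was tested on simulated data. Exon lengths and coordinates are from GENCODE M21, matched by symbol, and promoter sequences from RefSeq on GRCm38.p6. The Nr4a genes, the gene lists and the cell type markers were chosen with earlier results of these data known.

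Genes named beside the Nr4a genes follow 1 rule per list, applied to the cocaine, defeat and home-cage region comparisons: members that passed, at most the 5 with the smallest p, and the 2 with the smallest p where none passed. Likeness used genes with a mean of at least 1 CPM, without provisional gene models, and neighbours lay within 50 kb. Of the 5 genes most like each Nr4a gene, some are not reported here. The range ends of the nuclear receptors and Rxrg without a library were named after their values were seen. A high count of reads, taken without molecular identifiers, limits counting error only, while the SE and p-values also use the spread between libraries.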

Additional observations from a re-analysis of the deposited data

How the results depend on the processing

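Under other scalings and low-count filters, all 3 Nr4a genes kept their direction and their side of the threshold in every comparison. The contrast of all 8 libraries moved the count of genes called after defeat to 5, with log2 fold changes of 0.98 for Nr4a1, 0.64 for Nr4a2 and 0.81 for Nr4a3 past no threshold, the regional count in home-cage mice to 4654, and Nr4a2 in exposed mice to 1.04 with no call. DESeq2 called 4 genes after cocaine, 3622 between regions in home-cage mice and 2 for the difference of responses. With limma-voom the Nr4a2 difference of responses turned to 0.068. With the replicate block, 38 genes were called after cocaine, 33 higher and 5 lower, and Nr4a3 was called at a log2 fold change of 1.11 (adjusted p = 5.02e-04 by edgeR), while Nr4a1 had an adjusted p of 0.0509 and Nr4a2 of 0.0571. Of the 17 activity-regulated transcription factors, 6 were called higher after cocaine in that fit, and of the members of the other lists outside the Nr4a family, 0. With a replicate block within NAc, 3 genes were called for the difference of responses and Nr4a2 turned to 0.049. Deviations from the group means of same-numbered NAc libraries had a correlation of 0.57 across 18783 genes, but with 2 pairs and no label that a number marks a batch, the libraries share only a number. The mPFC titles carry no shared numbers, so no paired analysis was possible there.

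Leaving out each library in turn gave 58 to 238 genes called after defeat, the lowest without defeat replicate 2 and the highest without mPFC home-cage replicate 1. It gave 0 to 8048 genes between regions in home-cage mice, with 0 without either mPFC library, 5518 without NAc replicate 1 and 8048 without NAc replicate 2. It gave 1133 to 9334 between exposed groups, the lowest being 1133 without defeat replicate 1 and 1553 without defeat replicate 2, and 0 to 1 for the difference of responses. For the regions in home-cage mice Nr4a1 ranged over -0.85 to -0.27, Nr4a2 over 0.30 to 1.64 and Nr4a3 over -0.91 to 0.076. For the exposed groups Nr4a2 ranged over 0.81 to 1.25 and Nr4a3 over -0.26 to 0.027. For the difference of responses Nr4a1 ranged over -0.76 to -0.18, Nr4a2 over -0.61 to 0.74 and Nr4a3 over -0.19 to 0.79. An arm left with 1 library was assumed to vary like the other. The cause of these changes was not tested, beyond the smaller number of libraries in each such fit. Each Nr4a gene had at least 1515 counts in every library, and the effect of depth was not tested.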
